A study of Homo sapiens with 24 samples.

Results

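Inflammatory breast cancer cells of the line SUM190PT were compared after 48 h in CG-1521 and after 48 h in vehicle. Both groups had 3 arrays, with 3 experiments run independently according to the series' design text, and the arrays were taken by their titles: 6 of the 24 arrays in the series. SUM190PT is described by its labels as estrogen receptor negative with mutant p53. All SUM190PT cells, vehicle included, grew in Ham's F-12 with insulin, hydrocortisone, transferrin, triiodothyronine and other supplements, and were moved to serum-free medium for treatment. CG-1521, an inhibitor of histone deacetylases, was given at 5 µM, and the vehicle was ethanol and DMSO. The other SUM190PT groups received 10 nM estradiol, or estradiol with CG-1521, and SUM149PT, a second inflammatory breast cancer line, was treated with CG-1521 at 7.5 µM in medium with serum. Each line is 1 established culture, so the experiments sample repeat treatments of that culture and not different tumors. RNA was amplified by the NuGEN pico method, labelled with biotin and read on whole-transcript Affymetrix human gene arrays.

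Histone deacetylases remove acetyl groups from histones and also from other proteins, among them the chaperone HSP90 and tubulin, so an inhibitor can alter chromatin and the handling of proteins in the cytoplasm. Cells with unfolded proteins in the cytosol raise heat shock chaperones through the transcription factor HSF1, and cells with unfolded proteins in the endoplasmic reticulum raise a different chaperone set through the unfolded protein response. SUM190PT is used as a luminal, ERBB2-amplified model with apocrine features, that is, cells that make secreted breast proteins such as mammaglobins and depend on lipid synthesis.

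Values below are log2 expression in the order of replicates 1, 2 and 3, and a difference of 1 is a doubling. A gene was said to rise, fall or change when its Benjamini-Hochberg adjusted p in limma was under 0.05 over 18417 genes, and every adjusted p below comes from limma. Replicate arrays correlated at 0.981 to 0.991 within the vehicle group and at 0.988 to 0.990 within the CG-1521 group, with the lowest value between vehicle arrays 1 and 3. Vehicle array 3 lay low in DNA replication and spindle genes, so counts over the lists and the genes shown array by array are given with and without it, and the source of its low values was not tested. Of the genes named below as rising, falling or changing, all kept their direction without it, and all but HSPA4L, HSPE1, CDH3, ERBB2 and JAK2 kept their call. The summed level of 34 luminal markers was 38338 to 42200 on the linear scale in vehicle and 31589 to 34272 in CG-1521. Members of the mesenchymal (16 of 20), fibroblast (11 of 12), leukocyte (11 of 13) and endothelial (10 of 11) marker lists mostly had mean log2 values under 6.

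CG-1521 raised 1532 genes (8.32% of those tested) and lowered 1521 (8.26%), and of these 363 rose (1.97%) and 346 fell (1.88%) by at least 2-fold. Without vehicle array 3, 1270 genes rose (6.9%) and 1375 fell (7.47%), and 1160 of the rises and 1079 of the falls were the same genes in the same direction. Counts over lists below are to be read against these shares. Removing CG-1521 array 1 gave 866 rises and 701 falls, and removing vehicle array 2 gave 944 and 934. Removing CG-1521 array 3 left 967 falls. The 3 CG-1521 arrays lay wholly above the 3 vehicle arrays for 14.3% of all genes and wholly below for 17.2%. Groups that do not overlap, as given for single genes below, were thus common. The median change over all genes was -0.05. Rises made up 50.2% of the calls on the deposited scale, 66.4% after each array was centred on its median and 54.1% after quantile normalization, so the balance of rises and falls followed the scaling.

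The largest rises were in stress chaperones and in genes that were near the low end of the array's range in vehicle. BPIFC read 3.54, 3.42 and 3.50 in the vehicle arrays and 9.35, 8.05 and 8.02 in the CG-1521 arrays. BPIFC belongs to the lipid-binding BPI fold family, and its 3 treated arrays lay far above the vehicle arrays. The difference was 4.99 ± 0.38 (SE, adjusted p = 1.72e-05), and 4.99 without vehicle array 3. Its vehicle values lay near the low end of the array's range, so no fold is given. IL1RN read 4.96, 5.31 and 4.82 in the vehicle arrays and 8.74, 8.25 and 9.87 in the CG-1521 arrays. IL1RN encodes the secreted antagonist of the interleukin-1 receptor, and it rose by 3.92 ± 0.41 (adjusted p = 9.09e-05), or by 3.82 without vehicle array 3. CLIC2 read 3.15, 2.99 and 3.15 in the vehicle arrays and 7.25, 5.65 and 7.02 in the CG-1521 arrays. CLIC2, an intracellular chloride channel protein, moved from the low end of the array's range to a middle level in CG-1521 arrays 1 and 3 and less in array 2, a difference of 3.54 ± 0.39 (adjusted p = 0.000118) and of 3.57 without vehicle array 3. MSN read 8.33, 7.93 and 7.26 in the vehicle arrays and 10.80, 10.27 and 11.02 in the CG-1521 arrays. MSN encodes moesin, which ties actin to the cell membrane, and the groups did not overlap, with a change of 2.86 ± 0.27 (adjusted p = 5.56e-05) that was 2.57 without vehicle array 3, the lowest of the vehicle values.

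The largest falls included secreted and apocrine breast products. CYP4Z1 read 8.48, 8.10 and 9.90 in the vehicle arrays and 4.41, 4.17 and 4.80 in the CG-1521 arrays. CYP4Z1 is a breast-restricted fatty acid hydroxylase with a near-identical pseudogene, CYP4Z2P, whose signal may be mixed with it on the array. Its level fell to near the low end of the array's range in every treated array, so no fold is given, with a fall of 4.37 ± 0.46 (adjusted p = 9.38e-05) and a difference of -3.83 without vehicle array 3, in which it was highest. FGG read 9.61, 9.39 and 8.24 in the vehicle arrays and 5.51, 5.72 and 5.60 in the CG-1521 arrays. FGB read 7.46, 8.70 and 6.68 in the vehicle arrays and 3.85, 4.25 and 4.33 in the CG-1521 arrays. FGG and FGB encode chains of fibrinogen, and both ended low in all 3 treated arrays while the vehicle arrays spread more widely, with vehicle array 3 the lowest. FGG changed by -3.47 ± 0.42 (adjusted p = 0.000212) and FGB by -3.47 ± 0.49 (adjusted p = 0.000568), and without vehicle array 3 the differences were -3.89 and -3.94. CLCA2 read 10.42, 10.25 and 10.41 in the vehicle arrays and 7.0, 7.41 and 7.27 in the CG-1521 arrays. CLCA2, a regulator of chloride channels, had tight replicates in both groups and a difference of -3.13 ± 0.22 (adjusted p = 9.5e-06), or -3.11 without vehicle array 3.

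Of the 15 largest rises and 15 largest falls named by rule, all 30 kept their call when any 1 of the 6 arrays was left out. The rule picked them by call, separation and size in these same arrays, so keeping the call was favoured in advance. SH3BGR was also among the rises, at 2.76, and IFIT2, EPGN, MAP1B, HMOX1 and AKR1B10 are described with their pathways. The other falls included LRRC31, a leucine-rich repeat protein, at -3.44, the gel-forming mucin MUC19 at -3.41, and ELAPOR1, an endosome and lysosome protein known as an estrogen-induced gene, at -3.00. TMT1A, a thiol methyltransferase, stood at -2.75, GLYATL2, which joins fatty acids to glycine, at -2.72, and the transporter ABCC12 at -2.67. Among these 6 falls the adjusted p ran from 3.41e-05 for TMT1A to 0.000663 for GLYATL2. In the plot of these 30 genes by array, the groups do not overlap for any gene, as the rule requires.

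**Figure D1:**
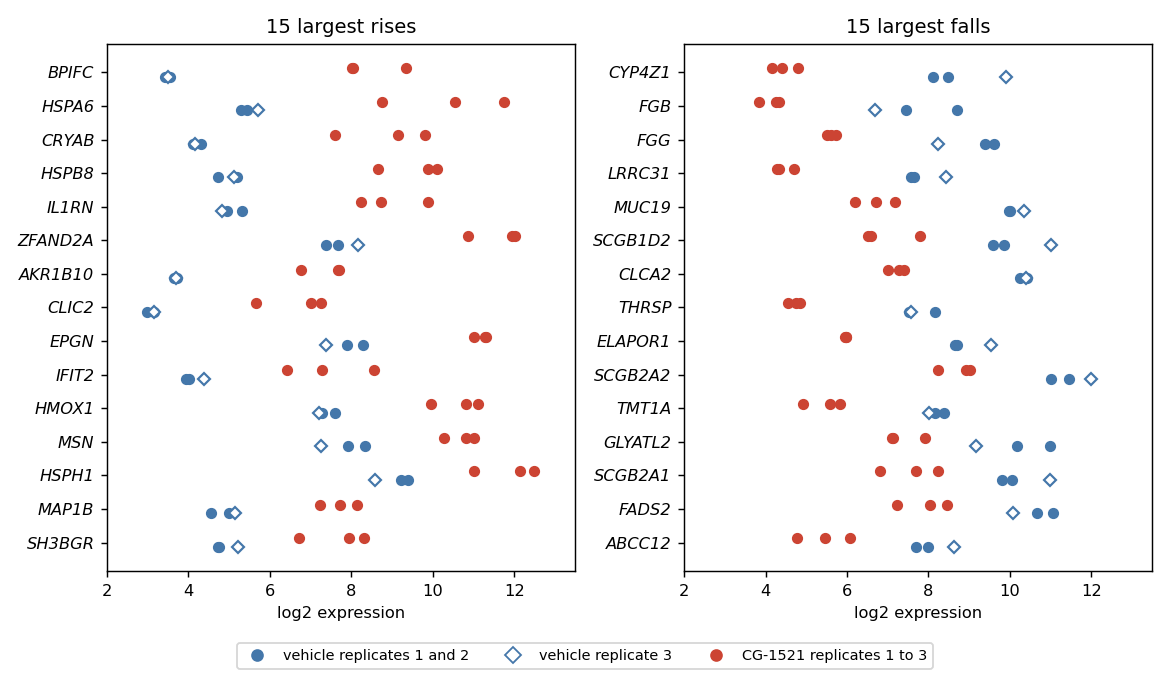
The 15 largest rises (left) and 15 largest falls (right), with log2 expression on the x axis and each of the 6 arrays as a point. Vehicle is blue, with vehicle replicate 3 as an open diamond, and CG-1521 is red. BPIFC moved from 3.42 to 3.54 in vehicle to 8.02 to 9.35 in CG-1521, and CYP4Z1 from 8.10 to 9.90 to 4.17 to 4.80.

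Heat shock chaperones rose together. Of 41 measured genes, 26 rose and none fell against a background of 8.32% of all genes rising and 8.26% falling, and their median change was 0.81 against -0.05 over all genes. At an unadjusted p under 0.05, 1 was lower. Without vehicle array 3, 23 rose and none fell, with a median of 0.72. Removing CG-1521 array 1 left 18 rises, and 1 gene fell without vehicle array 1. The CG-1521 arrays stood 0.77, 0.38 and 0.96 above the mean of vehicle arrays 1 and 2 in the group's median, so treated array 2 was the lowest, and vehicle array 3 stood at -0.10. HSF1 binds DNA at inverted GAA and TTC repeats, and stretches of promoter windows from 4 genes that rose and hold such a pair are shown for that reason. HSPH1, HSPA2, HSPA4 and BAG3, which also rose, have no match in their windows, nor do PTGES3 and DNAJB2 of the same list. The windows run from 250 bases before to 50 after the first transcribed base in RefSeq on GRCh38.p14, and capitals mark the matches to GAANNTTC or TTCNNGAA on either strand.
HSPA6: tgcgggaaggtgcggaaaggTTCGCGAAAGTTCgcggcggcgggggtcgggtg
HSPB8: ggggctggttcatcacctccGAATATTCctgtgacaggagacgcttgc
ZFAND2A: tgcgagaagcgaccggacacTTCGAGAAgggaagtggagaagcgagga
DNAJB1: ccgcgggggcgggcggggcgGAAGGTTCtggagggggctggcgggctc
The stretches lie at chr1:161524446-161524498 on the plus strand for HSPA6, chr12:119178823-119178870 on the plus strand for HSPB8, chr7:1160340-1160387 on the minus strand for ZFAND2A and chr19:14518447-14518494 on the minus strand for DNAJB1. All 4 lie upstream of the gene's first base. In HSPA6 the capitals hold a pair of overlapping matches. One or the other repeat order was found in 20 of 53 windows of the heat shock genes (37.7%) and in 11.5% of the 20107 windows of all measured genes. A match is a description of the letters and does not show that a factor binds there.

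HSP70 and HSP110 proteins, which hold and refold clients, rose in 7 of 8 cases, with a median of 0.94, and in 5 of 8 without vehicle array 3. HSPA6 read 5.43, 5.28 and 5.71 in the vehicle arrays and 10.55, 8.76 and 11.75 in the CG-1521 arrays. HSPA6 is the HSP70 gene that is nearly silent without stress, and it shares long stretches with the pseudogene HSPA7, so its probes may read both. Its treated values were all above vehicle but spread over 3 log2 units, and the difference was 4.88 ± 0.56 (adjusted p = 0.000159), or 5.00 without vehicle array 3. HSPH1 read 9.40, 9.21 and 8.58 in the vehicle arrays and 12.15, 11.02 and 12.49 in the CG-1521 arrays. HSPH1 is the HSP110 partner that recharges HSP70, and treated array 2 was again the lowest, with a difference of 2.82 ± 0.33 (adjusted p = 0.000191) that was 2.58 without vehicle array 3. HSPA4 rose by 0.81 ± 0.16 (adjusted p = 0.00389) and HSPA2, a member known from the testis, by 1.07 ± 0.21 (adjusted p = 0.00437). HSPA4L rose by 1.28 ± 0.37 (adjusted p = 0.0319), but without vehicle array 3, its lowest array, the difference was 0.85 with adjusted p = 0.101, and the call was also lost without vehicle array 2 or CG-1521 array 1 or 3.

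J-domain proteins, which deliver clients to HSP70, rose in 7 of 8 cases, with the highest median of the 5 roles, 1.13, and in 6 of 8 without vehicle array 3. DNAJB1 read 10.19, 10.30 and 10.07 in the vehicle arrays and 12.74, 11.82 and 12.80 in the CG-1521 arrays. DNAJB1 is the main cytosolic J-domain partner of stress HSP70, and it was already well expressed in vehicle, with a rise of 2.27 ± 0.23 (adjusted p = 7.07e-05) that was 2.21 without vehicle array 3. DNAJA4 rose by 2.25 ± 0.32 (adjusted p = 0.000592) and DNAJB4 by 2.08 ± 0.24 (adjusted p = 0.000159). HSP90 and its cochaperones rose in 6 of 8 cases with a median of 0.89. HSP90AB1 read 11.56, 11.38 and 11.32 in the vehicle arrays and 12.82, 12.20 and 12.82 in the CG-1521 arrays. HSP90AB1, the constitutive HSP90, did not overlap between groups and rose by 1.19 ± 0.17 (adjusted p = 0.000731), or by 1.14 without vehicle array 3. CHORDC1, an HSP90 cochaperone, rose by 1.94 ± 0.28 (adjusted p = 0.00071), FKBP4 by 0.87 ± 0.19 (adjusted p = 0.0075) and STIP1, which bridges HSP70 and HSP90, by 0.90 ± 0.21 (adjusted p = 0.0105). Without CG-1521 array 1 the call for STIP1 was lost, and without vehicle array 3 its difference was 0.76.

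Small heat shock proteins and regulators moved unevenly. Of 7 small heat shock proteins 3 rose, with a median of -0.01 over the 7. CRYAB read 4.11, 4.31 and 4.15 in the vehicle arrays and 9.14, 7.60 and 9.80 in the CG-1521 arrays. CRYAB, alpha-B crystallin, holds unfolded proteins without using ATP, and it rose by 4.65 ± 0.48 (adjusted p = 8.36e-05) and by 4.64 without vehicle array 3. HSPB8 read 4.71, 5.20 and 5.11 in the vehicle arrays and 10.11, 8.66 and 9.88 in the CG-1521 arrays. HSPB8 works with the cochaperone BAG3 to pass clients to autophagy, and it rose by 4.54 ± 0.37 (adjusted p = 2.24e-05) and by 4.59 without vehicle array 3. HSPB1, well expressed in vehicle at 11.76, 11.85 and 11.31, rose by 1.42 ± 0.21 (adjusted p = 0.000807; 1.26 without vehicle array 3). Of 10 nucleotide exchange factors and regulators 3 rose. BAG3 read 8.18, 8.02 and 8.15 in the vehicle arrays and 11.19, 9.80 and 11.27 in the CG-1521 arrays. BAG3 thus had closely grouped vehicle values and rose by 2.64 ± 0.31 (adjusted p = 0.000201), or by 2.65 without vehicle array 3. ZFAND2A read 7.67, 7.38 and 8.16 in the vehicle arrays and 12.01, 10.86 and 11.96 in the CG-1521 arrays. ZFAND2A, a proteasome-associated protein known for its induction by arsenite, rose by 3.87 ± 0.32 (adjusted p = 2.61e-05) and by 4.09 without vehicle array 3. HSF1, the transcription factor itself, changed by 0.48 ± 0.14 (adjusted p = 0.0316), a call that was lost without any one of vehicle arrays 1 and 2 and CG-1521 arrays 1 and 3, and kept without vehicle array 3 (0.56, adjusted p = 0.0242).

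**Figure D2:**
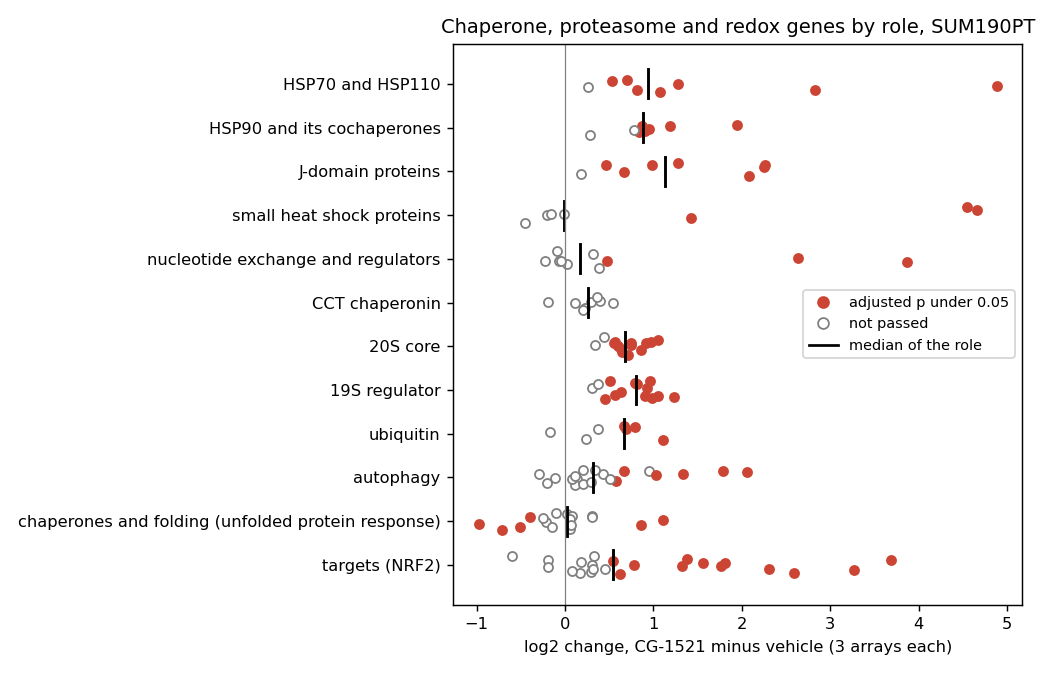
Log2 change (x axis, CG-1521 minus vehicle, 3 arrays each) of every measured gene in 12 roles (y axis), with filled points for genes that passed adjusted p under 0.05 and a black bar at the role's median. The medians are 1.13 for J-domain proteins, 0.94 for HSP70 and HSP110, 0.68 for the 20S core and 0.80 for the 19S regulator, while the folding genes of the unfolded protein response have a median of 0.03.

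The cytosolic chaperonin CCT, which folds actin and tubulin, did not move in the same way: none of its 8 subunits passed in limma, with a median of 0.26, and CCT4 stood at 0.55 ± 0.18 (adjusted p = 0.0528), or 0.37 without vehicle array 3. At an unadjusted p under 0.05, 5 of the 18 chaperonin and mitochondrial chaperones were higher and 1 was lower. Of 10 mitochondrial chaperones 2 rose. HSPD1, the mitochondrial HSP60, rose by 1.02 ± 0.20 (adjusted p = 0.00399), and its partner HSPE1 by 0.41 ± 0.12 (adjusted p = 0.0351), which was 0.30 with adjusted p = 0.122 without vehicle array 3 and was also lost without CG-1521 array 1 or 3.

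Proteasome subunits rose almost as a block but by small amounts. Of 28 measured genes, 24 rose and none fell (limma, 0 lower at an unadjusted p under 0.05), 12 of 14 in the 20S core that cuts proteins and 12 of 14 in the 19S regulator that unfolds them, with a median of 0.73. Without vehicle array 3, 17 rose and the median was 0.63, and 17 also rose without CG-1521 array 1. The treated arrays stood 0.75, 0.62 and 0.55 above the mean of vehicle arrays 1 and 2, and vehicle array 3 stood at -0.30. PSMD14 read 9.56, 9.32 and 9.29 in the vehicle arrays and 10.75, 10.61 and 10.52 in the CG-1521 arrays. PSMD14, the deubiquitinase of the 19S lid, had the largest change of the subunits that rose, 1.23 ± 0.16 (adjusted p = 0.00029), and 1.18 without vehicle array 3. PSMB7 read 10.59, 10.41 and 10.36 in the vehicle arrays and 11.41, 11.44 and 11.24 in the CG-1521 arrays. PSMB7, which carries the trypsin-like activity, had no overlap of groups and a difference of 0.91 ± 0.12 (adjusted p = 0.000347; 0.86 without vehicle array 3). PSMA3, PSMA5, PSMC1, PSMD6 and PSMC6 rose by 1.06, 0.97, 1.05, 0.98 and 0.96, and without vehicle array 3 by 0.99, 0.84, 0.91, 0.95 and 0.93.

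Of 27 ubiquitin and autophagy genes 10 rose and none fell (limma, 1 lower at an unadjusted p under 0.05), and 12 rose without vehicle array 3, while 7 rose without vehicle array 2 or without CG-1521 array 1. SQSTM1 read 10.62, 10.48 and 10.20 in the vehicle arrays and 12.46, 12.15 and 12.06 in the CG-1521 arrays. SQSTM1 encodes p62, which carries ubiquitinated proteins into autophagy, and it rose by 1.79 ± 0.16 (adjusted p = 3.99e-05) with groups far apart, or by 1.67 without vehicle array 3. GABARAPL1 read 6.81, 6.21 and 7.15 in the vehicle arrays and 9.36, 8.26 and 8.73 in the CG-1521 arrays. GABARAPL1, a protein of the autophagosome membrane, rose by 2.06 ± 0.32 (adjusted p = 0.00119) and by 2.27 without vehicle array 3, in which it was highest among the controls. OPTN, another autophagy receptor, rose by 1.33 ± 0.19 (adjusted p = 0.000567), the polyubiquitin gene UBB by 1.11 ± 0.16 (adjusted p = 0.000819) and VCP, a segregase that pulls ubiquitinated proteins out of complexes, by 0.79 ± 0.12 (adjusted p = 0.000977).

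The unfolded protein response of the endoplasmic reticulum was split. Of 22 genes 3 rose and 5 fell, against 8.32% and 8.26% of all genes. The median was 0.04, but -0.04 without vehicle array 3 and -0.02 after quantile normalization, so its sign was not stable. CALR read 11.01, 11.01 and 10.84 in the vehicle arrays and 9.92, 9.90 and 10.12 in the CG-1521 arrays. CALR, the lumenal chaperone calreticulin, fell by 0.97 ± 0.12 (adjusted p = 0.000299) and by 1.03 without vehicle array 3, and the folding enzyme PDIA4 changed by -0.71 ± 0.13 (adjusted p = 0.00282). XBP1, a transcription factor of the response, changed by -0.68 ± 0.15 (adjusted p = 0.00793). In the other direction, HSPA5 read 11.60, 11.74 and 11.88 in the vehicle arrays and 12.93, 12.39 and 12.49 in the CG-1521 arrays. HSPA5 is BiP, the main chaperone of the reticulum, and it rose by 0.86 ± 0.16 (adjusted p = 0.00298; 0.93 without vehicle array 3) with no overlap of groups. PPP1R15A read 6.67, 6.43 and 7.17 in the vehicle arrays and 9.34, 8.30 and 9.24 in the CG-1521 arrays. PPP1R15A encodes GADD34, which restarts translation after stress, and it rose by 2.20 ± 0.30 (adjusted p = 0.000467), or by 2.41 without vehicle array 3.

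Genes of the NRF2 antioxidant response rose. Of 28 measured genes 16 rose and none fell (limma, 1 lower at an unadjusted p under 0.05), with a median of 0.61, and 15 rose without vehicle array 3 with a median of 0.74. Removing vehicle array 2 left 10, and 1 gene fell without CG-1521 array 2. HMOX1 read 7.60, 7.27 and 7.19 in the vehicle arrays and 11.10, 10.81 and 9.97 in the CG-1521 arrays. HMOX1, heme oxygenase 1, breaks down heme, and it rose by 3.27 ± 0.31 (adjusted p = 5.56e-05) with treated array 3 the lowest of its group, and by 3.19 without vehicle array 3. SRXN1 read 8.02, 7.81 and 7.67 in the vehicle arrays and 10.94, 10.69 and 9.64 in the CG-1521 arrays. SRXN1, sulfiredoxin, repairs oxidized peroxiredoxins, and it rose by 2.59 ± 0.39 (adjusted p = 0.000868) and by 2.50 without vehicle array 3. AKR1B10 read 3.72, 3.65 and 3.70 in the vehicle arrays and 7.69, 7.66 and 6.77 in the CG-1521 arrays. AKR1B10 reduces lipid aldehydes and belongs to a family of similar sequences, and it went from near the low end of the array's range to a middle level, with a difference of 3.68 ± 0.40 (adjusted p = 0.000109) and of 3.69 without vehicle array 3. GCLM, the modifier of glutathione synthesis, rose by 1.81 ± 0.35 (adjusted p = 0.00418) and the export pump ABCC2 by 2.30 ± 0.40 (adjusted p = 0.00203). Among the factors, MAFG, a DNA-binding partner of NRF2, rose by 1.36 ± 0.12 (adjusted p = 3.91e-05), and BACH1, a repressor of the same targets, by 1.53 ± 0.18 (adjusted p = 0.00016).

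Sterol synthesis genes were lower with CG-1521. All 16 measured enzymes had a negative difference, 12 of them passed (against 8.26% of all genes falling), and the median was -1.02. Without vehicle array 3, 13 fell and the median was -1.03, and removing CG-1521 array 1 left 8. The treated arrays stood at -1.17, -0.63 and -1.21 against the mean of vehicle arrays 1 and 2, with vehicle array 3 at -0.25. SQLE read 10.02, 9.83 and 9.65 in the vehicle arrays and 8.07, 8.98 and 8.79 in the CG-1521 arrays. SQLE, squalene epoxidase, is a rate-limiting step after the branch to sterols, and it fell by 1.22 ± 0.25 (adjusted p = 0.00563), or by 1.31 without vehicle array 3. DHCR7 read 11.29, 11.05 and 11.26 in the vehicle arrays and 9.75, 10.30 and 9.88 in the CG-1521 arrays. DHCR7 makes cholesterol in the last step, and it changed by -1.22 ± 0.17 (adjusted p = 0.000467; -1.19 without vehicle array 3) with no overlap between groups. EBP, FDPS and LSS, which act before it, changed by -1.31, -1.21 and -1.14, and without vehicle array 3 by -1.37, -1.38 and -1.25.

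The regulators of sterol synthesis fell as well, 5 of 7 with and without vehicle array 3. INSIG1 read 9.39, 9.55 and 9.25 in the vehicle arrays and 8.04, 8.64 and 7.99 in the CG-1521 arrays. INSIG1 retains the sensor SCAP in the reticulum and is itself a target of SREBP2, and it changed by -1.17 ± 0.20 (adjusted p = 0.0022), or by -1.25 without vehicle array 3. SREBF1 read 8.32, 8.48 and 8.86 in the vehicle arrays and 7.16, 7.66 and 7.53 in the CG-1521 arrays. SREBF1 encodes the lipogenic SREBP1 and changed by -1.10 ± 0.20 (adjusted p = 0.0029), or by -0.95 without vehicle array 3, its highest control. SREBF2 changed by -0.95 ± 0.23 (adjusted p = 0.0136) and SCAP by -0.66 ± 0.15 (adjusted p = 0.0111), and both calls were lost without CG-1521 array 1. Of 7 uptake and trafficking genes 1 rose, NPC1, which exports cholesterol from lysosomes, at 0.63 ± 0.12 (adjusted p = 0.00393). The core sterol element TCACNCCAC was in none of 19 promoter windows of the sterol genes and in 1.12% of all windows, and the CCAAT box core ATTGG, counted on both strands, was in 14 of the 19 (73.7%) and in 34.6% of all.

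Of 23 fatty acid synthesis genes 12 fell and 1 rose, against 8.26% and 8.32% of all genes, with a median of -0.70. Without vehicle array 3, 13 fell, against 7.47% of all genes, with a median of -0.74. FADS2 read 11.05, 10.67 and 10.07 in the vehicle arrays and 7.22, 8.46 and 8.04 in the CG-1521 arrays. FADS2, the desaturase at the start of polyunsaturated fatty acid synthesis, changed by -2.69 ± 0.38 (adjusted p = 0.000554) and by -2.96 without vehicle array 3. THRSP read 8.17, 7.51 and 7.57 in the vehicle arrays and 4.74, 4.54 and 4.85 in the CG-1521 arrays. THRSP, a regulator of lipogenesis that answers to thyroid hormone, fell into a narrow low range with a change of -3.04 ± 0.19 (adjusted p = 4.11e-06), or -3.13 without vehicle array 3. FASN read 11.84, 11.93 and 11.65 in the vehicle arrays and 10.04, 11.04 and 10.59 in the CG-1521 arrays. FASN, fatty acid synthase, changed by -1.25 ± 0.27 (adjusted p = 0.00811), or by -1.33 without vehicle array 3, and treated array 2 was nearest to vehicle. SCD, which makes monounsaturated fatty acids, changed by -1.32 ± 0.29 (adjusted p = 0.00786) and DGAT2, which makes triglycerides, by -1.07 ± 0.18 (adjusted p = 0.00152). The gene that rose, ELOVL1, named after its value was seen, extends very long chains and stood at 0.42, and it did not keep its call without vehicle array 2 or CG-1521 array 3.

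Genes that burn fuel in mitochondria were also lower. Of 19 fatty acid oxidation genes 8 fell and none rose (limma, 2 higher at an unadjusted p under 0.05), with a median of -0.39, which became 6 and -0.28 without vehicle array 3 and 4 genes without CG-1521 array 1, and 1 gene rose without CG-1521 array 3. PPARGC1A read 7.74, 7.88 and 8.53 in the vehicle arrays and 6.17, 5.92 and 6.29 in the CG-1521 arrays. PPARGC1A, a coactivator of mitochondrial genes, changed by -1.92 ± 0.23 (adjusted p = 0.000196), or by -1.68 without vehicle array 3. HADH and ACADM, enzymes of the oxidation cycle, changed by -1.19 ± 0.18 (adjusted p = 0.00106) and -0.92 ± 0.14 (adjusted p = 0.00103). Of 46 subunits of oxidative phosphorylation 23 fell and none rose (limma, 0 higher at an unadjusted p under 0.05), with a median of -0.37, and 18 fell without vehicle array 3 with a median of -0.41. The count was 14 without CG-1521 array 1 or array 3, and the treated arrays stood at -0.51, -0.23 and -0.46. NDUFV1 read 9.12, 9.34 and 9.50 in the vehicle arrays and 8.24, 8.59 and 8.35 in the CG-1521 arrays. NDUFV1, which takes electrons from NADH into complex I, changed by -0.93 ± 0.15 (adjusted p = 0.00131; -0.84 without vehicle array 3), and COX8A of complex IV by -0.77 ± 0.10 (adjusted p = 0.000467). Of 24 citrate cycle and pyruvate genes 13 fell and none rose (limma, 1 higher at an unadjusted p under 0.05), with a median of -0.43, and 12 fell without vehicle array 3, while 8 fell without vehicle array 1 or CG-1521 array 1 or 3, and 1 rose without CG-1521 array 3. IDH2, the mitochondrial isocitrate dehydrogenase, had the largest change of these, -1.40 ± 0.20 (adjusted p = 0.000613).

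Glycolysis and hypoxia genes rose in part. Among 18 glycolysis genes 4 rose, with a median of -0.10, and among 14 hypoxia genes 3 rose, with a median of 0.19. Of 32 glycolysis and hypoxia genes 7 rose and none fell (limma, 3 lower at an unadjusted p under 0.05), 6 without vehicle array 3 and 4 without CG-1521 array 2 or array 3, with a median of -0.09, and 1 fell without CG-1521 array 2. NDRG1 read 7.23, 8.13 and 9.60 in the vehicle arrays and 10.73, 10.41 and 11.32 in the CG-1521 arrays. NDRG1, a stress gene raised by hypoxia, had vehicle arrays spread over more than 2 units with array 3 the highest, and it rose by 2.50 ± 0.53 (adjusted p = 0.0069), or by 3.14 without vehicle array 3. ADM read 6.57, 6.38 and 6.72 in the vehicle arrays and 8.07, 7.83 and 8.32 in the CG-1521 arrays. ADM, the peptide adrenomedullin, had tight replicates and rose by 1.51 ± 0.14 (adjusted p = 5.56e-05). SLC2A1, the main glucose transporter, rose by 0.60 ± 0.13 (adjusted p = 0.00822). The cytosolic ribosome (1 rise and 1 fall among 26 genes), ribosome making (2 and 1 among 26) and the mitochondrial ribosome (2 and 1 among 30) held few calls, at or under the share of all genes. Leaving out 1 array changed the mitochondrial ribosome to 7 rises without vehicle array 1 and to none without vehicle array 2, vehicle array 3, CG-1521 array 1 or CG-1521 array 3.

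Luminal identity genes were mixed and leaned lower. Of 34 luminal markers 13 fell and 3 rose with a median of -0.32, and without vehicle array 3 10 fell and 1 rose with a median of -0.36. Leaving out vehicle array 2, CG-1521 array 1 or CG-1521 array 3 also left 1 rise. In cells in bulk, fewer cells of a state and less RNA per cell cannot be told apart. Transcription factors carried most of the falls, with 8 of 16 lower and 2 higher, against 8.26% and 8.32% of all genes. Without vehicle array 3, 8 factors were lower and 0 higher. No factor had a difference above 0.66, and those named here all fell. TFAP2B read 8.96, 8.78 and 8.96 in the vehicle arrays and 6.12, 6.53 and 6.63 in the CG-1521 arrays. TFAP2B, an AP-2 factor of luminal cells, had the largest change of the factors, -2.47 ± 0.16 (adjusted p = 4.11e-06), and -2.44 without vehicle array 3. SPDEF read 9.50, 9.43 and 9.87 in the vehicle arrays and 7.55, 8.02 and 7.72 in the CG-1521 arrays. SPDEF drives secretory differentiation, and it changed by -1.84 ± 0.22 (adjusted p = 0.000183), or by -1.70 without vehicle array 3. FOXA1 read 9.68, 9.68 and 9.69 in the vehicle arrays and 8.63, 8.61 and 8.68 in the CG-1521 arrays. FOXA1, which opens chromatin for steroid receptors, had replicates nearly equal within each group and changed by -1.04 ± 0.12 (adjusted p = 0.000131; -1.04 without vehicle array 3). GATA3, the master factor of the luminal lineage, changed by -1.46 ± 0.18 (adjusted p = 0.000261) and MYB by -1.61 ± 0.25 (adjusted p = 0.00113).

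Among epithelial products, PROM1 read 6.53, 6.17 and 5.91 in the vehicle arrays and 3.62, 4.37 and 3.67 in the CG-1521 arrays. PROM1, a surface marker of luminal progenitors, changed by -2.32 ± 0.28 (adjusted p = 0.000232), or by -2.47 without vehicle array 3. Of 28 keratins 2 rose and 3 fell, near 8.32% and 8.26% of all genes, with a median of -0.05 and differences from -1.16 to 1.67. KRT8, a defining luminal keratin, read 12.43, 12.58 and 12.42 in vehicle and 11.81, 12.15 and 11.94 in CG-1521, a fall of 0.51 ± 0.12 (adjusted p = 0.00937; -0.54 without vehicle array 3) whose call was lost without CG-1521 array 1. CLDN4, a tight junction claudin, rose by 0.95 ± 0.18 (adjusted p = 0.00361). Genes for secreted products also fell in part. Of 31 apocrine and secretory products 13 fell and 2 rose, the same counts with and without vehicle array 3, with medians of -0.37 and -0.34. SCGB2A2 read 11.44, 11.01 and 11.99 in the vehicle arrays and 8.24, 9.01 and 8.93 in the CG-1521 arrays. SCGB2A2 is mammaglobin A, a secreted protein used as a breast marker, and it changed by -2.76 ± 0.27 (adjusted p = 7.07e-05), or by -2.50 without vehicle array 3, its highest control. Its relatives SCGB1D2 and SCGB2A1, which share sequence within the family, changed by -3.18 ± 0.54 (adjusted p = 0.00181) and -2.71 ± 0.46 (adjusted p = 0.00181), and without vehicle array 3 by -2.75 and -2.36. The 2 that rose were CLU, an extracellular chaperone, at 1.51 and LCN2, a carrier of iron-binding molecules named after its value was seen, at 1.76.

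Basal markers moved the other way. Of 13 measured markers 6 rose and 1 fell, against 8.32% and 8.26% of all genes, with a median of 0.67. Without vehicle array 3, 7 of the markers rose and none fell, with a median of 0.85. Their summed linear level was 2587 to 3111 in vehicle and 6887 to 8855 in CG-1521, and most of that rise was in ANXA1. Without it the other 12 summed to 1183 to 1238 in vehicle and 1615 to 1830 in CG-1521. ANXA1 read 10.43, 10.48 and 10.87 in the vehicle arrays and 12.75, 12.33 and 12.78 in the CG-1521 arrays. ANXA1, annexin A1, had treated arrays well above vehicle, and it rose by 2.02 ± 0.17 (adjusted p = 2.61e-05), or by 2.16 without vehicle array 3. EGFR read 5.43, 5.72 and 5.79 in the vehicle arrays and 6.45, 6.74 and 6.97 in the CG-1521 arrays. EGFR, the epidermal growth factor receptor, stayed low but did not overlap between groups and rose by 1.07 ± 0.16 (adjusted p = 0.000773), or by 1.14 without vehicle array 3. ITGA6, a laminin-binding integrin, KRT16, a keratin of stressed epithelium, and LAMB3, a chain of laminin-332, rose by 1.59, 1.46 and 1.21. The defining basal keratins, named after their values were seen, stayed near vehicle: KRT5 read 5.07, 5.64 and 5.87 in vehicle and 5.58, 5.26 and 5.34 in CG-1521, and KRT14 read 6.91, 6.66 and 7.16 and 6.81, 7.01 and 7.02. The marker that fell was CDH3, P-cadherin, at -0.85 ± 0.24 (adjusted p = 0.0283), a call lost without vehicle array 1, 2 or 3 or CG-1521 array 1 or 2.

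Mesenchymal genes held 1 call in 20, S100A4, which fell by 0.76 ± 0.15 (adjusted p = 0.00541), and the list's median was -0.15. It held 4 falls without vehicle array 1, and 1 rise without CG-1521 array 2. Of 28 junction genes 9 rose and 2 fell, against 8.32% and 8.26% of all genes, so the falls were near that share. Without vehicle array 3, 7 of the junction genes rose and 2 fell, against 6.9% and 7.47%. Among them DSC2, a desmosomal cadherin, rose by 1.12 ± 0.13 (adjusted p = 0.000182) and CLDN12 by 1.18 ± 0.13 (adjusted p = 9.15e-05), while CLDN8 changed by -1.59 ± 0.35 (adjusted p = 0.00852). The leukocyte list held 1 call in 13, and 2 without CG-1521 array 2 or 3. CD68 read 6.86, 6.99 and 6.92 in the vehicle arrays and 9.04, 8.61 and 8.85 in the CG-1521 arrays. CD68, a lysosomal protein used as a macrophage marker, rose by 1.91 ± 0.15 (adjusted p = 2.24e-05; 1.91 without vehicle array 3), and the summed level of the list was 437 to 511 in vehicle and 731 to 902 in CG-1521. That rise was in CD68, since the other 12 markers summed to 321 to 390 in vehicle and 339 to 377 in CG-1521. The defining leukocyte gene PTPRC, named after its value was seen, read 2.89, 2.78 and 2.83 in vehicle and 2.99, 2.79 and 2.82 in CG-1521, near the lower end of the deposited values in all 6 arrays. No fibroblast or endothelial marker passed in limma with all 6 arrays, and 2 of 12 and 1 of 11 had an unadjusted p under 0.05.

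Both receptors and ligands of growth factor signalling held calls, 2 rises and 3 falls among 12 receptors and their neighbours and 6 rises and 1 fall among 18 ligands and feedback genes. Without vehicle array 3 the receptors and neighbours held 1 rise and no fall, and the ligands and feedback genes 6 and 1. The shares of all genes were 8.32% rising and 8.26% falling, and 6.9% and 7.47% without vehicle array 3. Of all 30 ERBB genes 8 rose and 4 fell, and 7 rose and 1 fell without vehicle array 3, with 5 rises without vehicle array 2 and 1 fall without CG-1521 array 1. EPGN read 8.30, 7.90 and 7.39 in the vehicle arrays and 11.29, 11.31 and 11.01 in the CG-1521 arrays. EPGN, epigen, is a ligand of EGFR, and it rose to a high level in all treated arrays, by 3.34 ± 0.28 (adjusted p = 2.61e-05), or by 3.11 without vehicle array 3. LRIG1 read 9.03, 8.79 and 8.74 in the vehicle arrays and 6.88, 7.40 and 7.17 in the CG-1521 arrays. LRIG1 is a negative regulator that removes ERBB receptors, and it changed by -1.70 ± 0.17 (adjusted p = 7.07e-05), or by -1.76 without vehicle array 3. TGFA, another EGFR ligand, rose by 1.21 ± 0.19 (adjusted p = 0.00137) and DUSP5, a phosphatase of the ERK pathway, by 1.35 ± 0.20 (adjusted p = 0.00071). ERBB2 read 12.69, 12.41 and 12.67 in the vehicle arrays and 11.89, 12.09 and 12.23 in the CG-1521 arrays. ERBB2, the amplified receptor of this line, stayed high in all 6 arrays and fell by 0.52 ± 0.14 (adjusted p = 0.0198), a call lost without vehicle array 1, CG-1521 array 1 or vehicle array 3 (-0.48, adjusted p = 0.057). Its neighbour on the amplified segment, GRB7, differed by 0.18 ± 0.21 (adjusted p = 0.615).

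Steroid receptor and estrogen response genes fell in 9 of 27 cases and rose in 1, and 7 fell and none rose without vehicle array 3, while 5 fell without CG-1521 array 1. The rise was also lost without vehicle array 2 or CG-1521 array 1 or 3. THRA read 9.22, 9.06 and 9.53 in the vehicle arrays and 7.50, 8.29 and 8.23 in the CG-1521 arrays. THRA, a thyroid hormone receptor, changed by -1.26 ± 0.22 (adjusted p = 0.00238), or by -1.13 without vehicle array 3. Both groups had grown in medium with triiodothyronine before the move to serum-free medium. CA12 read 8.10, 7.73 and 8.22 in the vehicle arrays and 6.34, 6.75 and 6.62 in the CG-1521 arrays. CA12, a carbonic anhydrase known as an estrogen-responsive gene, changed by -1.45 ± 0.18 (adjusted p = 0.000234), or by -1.34 without vehicle array 3. ESR1, the estrogen receptor itself, read 4.54, 4.84 and 4.72 in vehicle and 4.54, 4.55 and 4.60 in CG-1521, low in all 6 arrays, with a difference of -0.14 ± 0.14 (adjusted p = 0.533; -0.13 without vehicle array 3). Over all genes 8.26% fell and 8.32% rose with all arrays. Of 11 glucocorticoid and thyroid hormone response genes 2 fell and 1 rose, with no rise without vehicle array 2 or CG-1521 array 3. Among them TSC22D3, a glucocorticoid-induced gene, changed by -1.35 ± 0.30 (adjusted p = 0.00969), or by -0.97 without vehicle array 3, its highest control. Hydrocortisone was in the medium in which both groups had grown before treatment.

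Genes of cell division were lower with CG-1521, and the number of calls depended on vehicle array 3. All 58 spindle and kinetochore genes had a negative difference and 37 fell, with a median of -1.40, and 53 fell without vehicle array 3 with a median of -1.85. Leaving out another array gave fewer calls, 20 without vehicle array 1, 16 without vehicle array 2, 13 without CG-1521 array 1 and 21 without CG-1521 array 3. Against the mean of vehicle arrays 1 and 2, the treated arrays stood at -2.06, -1.47 and -1.88, and vehicle array 3 at -1.25. KIF20A read 9.24, 8.99 and 7.57 in the vehicle arrays and 5.54, 6.45 and 5.90 in the CG-1521 arrays. KIF20A, a kinesin of the late spindle, had the largest fall of the list, 2.64 ± 0.48 (adjusted p = 0.00281), and the difference was -3.15 without vehicle array 3, which lay between the groups. PLK1 read 9.85, 9.64 and 8.51 in the vehicle arrays and 6.65, 7.61 and 7.20 in the CG-1521 arrays. PLK1, a kinase of mitotic entry, changed by -2.18 ± 0.39 (adjusted p = 0.00262), or by -2.60 without vehicle array 3. CENPF read 8.93, 8.82 and 7.44 in the vehicle arrays and 5.50, 6.92 and 6.20 in the CG-1521 arrays. CENPF, a kinetochore protein, changed by -2.19 ± 0.45 (adjusted p = 0.00606), or by -2.67 without vehicle array 3. NEK2, AURKB and ASPM changed by -2.23, -1.57 and -2.23, and without vehicle array 3 by -2.44, -1.85 and -2.55.

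Of 22 genes that control the passage from G2 into mitosis 17 fell with a median of -1.35, and 20 without vehicle array 3 with a median of -1.78, but 10 without vehicle array 1 or CG-1521 array 3, 11 without vehicle array 2 and 8 without CG-1521 array 1. TOP2A read 8.76, 8.46 and 7.65 in the vehicle arrays and 5.45, 6.71 and 5.90 in the CG-1521 arrays. TOP2A, the topoisomerase that untangles chromosomes, changed by -2.27 ± 0.40 (adjusted p = 0.00241), or by -2.59 without vehicle array 3. CCNB2 read 9.83, 9.21 and 8.61 in the vehicle arrays and 6.78, 7.76 and 7.32 in the CG-1521 arrays. CCNB2 encodes a mitotic cyclin, and it changed by -1.93 ± 0.38 (adjusted p = 0.00425), or by -2.23 without vehicle array 3. MKI67 read 9.35, 9.07 and 7.66 in the vehicle arrays and 6.01, 7.36 and 6.55 in the CG-1521 arrays. MKI67, the marker Ki-67, had vehicle array 3 closer to treated array 2 than to the other controls, and its change of -2.05 ± 0.51 (adjusted p = 0.0163) was -2.57 without vehicle array 3 and lost its call without vehicle array 1 or 2 or CG-1521 array 1 or 3. Of 21 cytokinesis genes 8 fell and 1 rose, against 8.26% and 8.32% of all genes, and 11 and 1 without vehicle array 3. CEP55, which recruits the machinery of final separation, changed by -2.01 ± 0.35 (adjusted p = 0.00214).

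Promoters of genes expressed late in the cell cycle often carry the sequence TTTGAA, called the cell-cycle genes homology region, close to their start, and 2 examples that hold it are shown with it in capitals on either strand.
MKI67: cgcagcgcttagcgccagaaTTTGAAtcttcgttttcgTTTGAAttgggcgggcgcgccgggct
CCNB2: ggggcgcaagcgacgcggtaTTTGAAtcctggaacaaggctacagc
They lie at chr10:128126427-128126490 on the minus strand for MKI67 and chr15:59105097-59105142 on the plus strand for CCNB2, upstream of the first base, and come from RefSeq on GRCh38.p14. TTTGAA was found in 32 of 54 windows of the spindle genes (59.3%), 13 of 27 of the G2 and mitosis genes (48.1%) and 3 of 69 of the DNA replication genes (4.35%), against 12.3% of all windows. ATTGG was in 70.4% of the spindle windows and 74.1% of the G2 and mitosis windows.

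How many DNA replication genes passed depended on vehicle array 3 and on the fit. With all 6 arrays 5 of 59 fell and none rose (limma, with 24 falls and 2 rises at an unadjusted p under 0.05), with a median of -0.75. The 5 falls were near the 8.26% of all genes that fell. Without vehicle array 3, 32 fell, against 7.47% of all genes, with a median of -1.21. With all arrays kept, 22 fell and 1 rose with a replicate block, and 24 fell and 2 rose with all 24 arrays in one fit. None was called without CG-1521 array 1, 1 without vehicle array 2, and 2 fell and 2 rose without vehicle array 1. In the group's median vehicle array 3 stood at -1.32 against the other controls, as low as the treated arrays at -1.43, -0.89 and -1.30, and the third estradiol array stood at -1.10. RFC3 read 10.52, 10.04 and 9.13 in the vehicle arrays and 7.58, 8.72 and 8.07 in the CG-1521 arrays. RFC3, a subunit of the clamp loader, changed by -1.77 ± 0.41 (adjusted p = 0.0107), or by -2.16 without vehicle array 3, and its call was lost without CG-1521 array 1. TK1 read 9.94, 9.99 and 8.25 in the vehicle arrays and 7.88, 8.19 and 7.77 in the CG-1521 arrays. TK1, thymidine kinase, differed by -1.45 ± 0.47 (adjusted p = 0.0513), and by -2.02 without vehicle array 3 (adjusted p = 0.00586). CDC7 read 6.95, 6.82 and 5.19 in the vehicle arrays and 4.62, 5.62 and 5.18 in the CG-1521 arrays. CDC7, the kinase that fires origins, had vehicle array 3 inside the treated range and differed by -1.18 ± 0.49 (adjusted p = 0.118), and by -1.75 without it (adjusted p = 0.0173).

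The sliding clamp PCNA and the helicase subunit MCM5, named after their values were seen, showed the same pattern. PCNA read 9.97, 9.66 and 8.27 in the vehicle arrays and 7.99, 8.63 and 8.33 in the CG-1521 arrays. MCM5 read 9.62, 9.62 and 7.62 in the vehicle arrays and 7.81, 8.48 and 7.88 in the CG-1521 arrays. In both, vehicle array 3 lay among or below the treated arrays, and the differences were -0.98 ± 0.44 (adjusted p = 0.145) and -0.89 ± 0.55 (adjusted p = 0.288) with it, and -1.50 (adjusted p = 0.0204) and -1.56 (adjusted p = 0.0399) without it. Of 24 BRCA and Fanconi repair genes 2 fell, 13 without vehicle array 3, and none without vehicle array 1, vehicle array 2 or CG-1521 array 1. Of 20 E2F and cyclin genes 2 fell, 7 without vehicle array 3 and 1 without vehicle array 1, vehicle array 2, CG-1521 array 1 or CG-1521 array 3. In both lists the 2 falls with all arrays were near the 8.26% of all genes that fell. The share of all genes was 7.47% without vehicle array 3. CCND1, cyclin D1 of the early cycle, read 10.99, 11.08 and 10.84 in vehicle and 10.20, 10.45 and 10.35 in CG-1521, with vehicle array 3 near the other controls, and changed by -0.64 ± 0.11 (adjusted p = 0.00257; -0.70 without vehicle array 3).

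**Figure D3:**
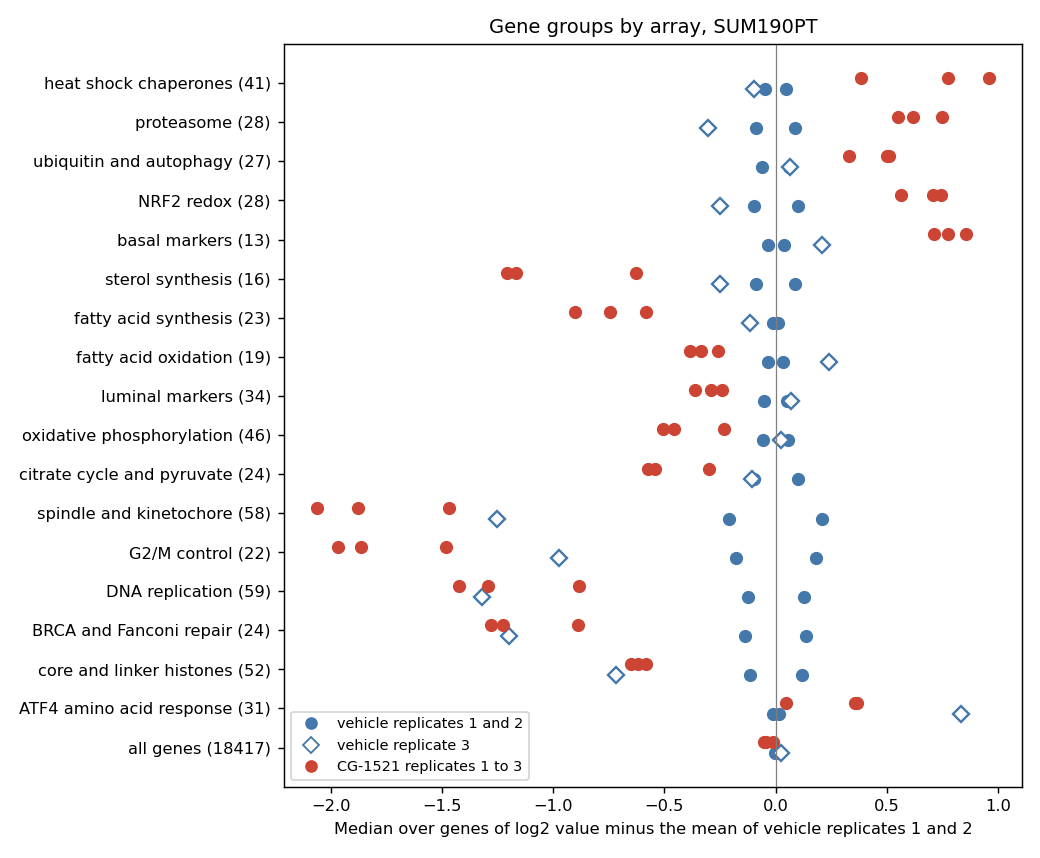
Median over each gene group (y axis, number of measured genes in brackets) of log2 expression minus the mean of vehicle replicates 1 and 2 (x axis), with 1 point per array. Vehicle replicate 3, the open diamond, stands at -1.32 for DNA replication and -1.25 for spindle genes but at -0.10 for heat shock chaperones and -0.25 for sterol synthesis, where the treated arrays in red are at 0.38 to 0.96 and at -1.21 to -0.63.

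**Figure D4:**
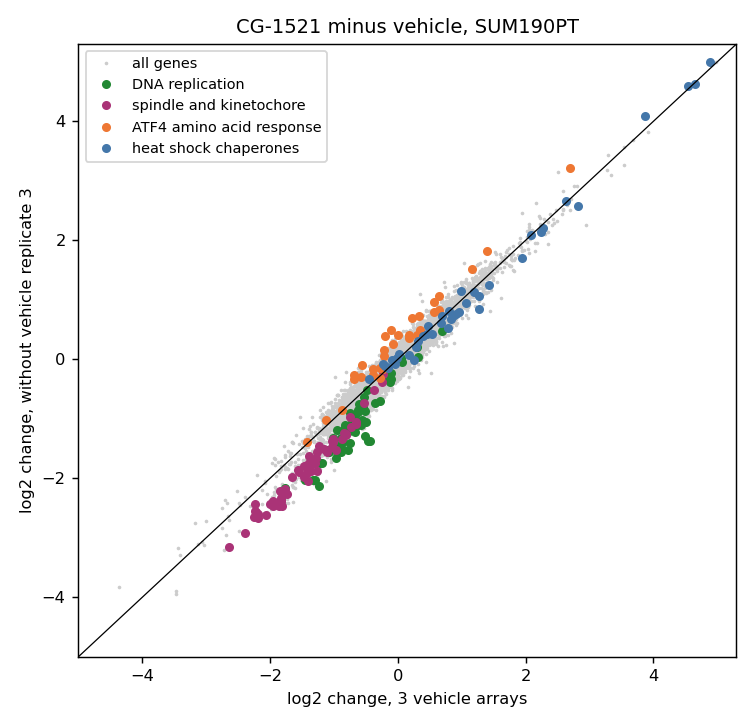
Log2 change of every gene with all 3 vehicle arrays (x axis) and without vehicle replicate 3 (y axis), with 4 gene groups in colour and the line of equality in black. DNA replication (green, median -0.75 and -1.21) and spindle genes (purple, -1.40 and -1.85) lie mostly below the line, amino acid response genes (orange, -0.11 and 0.36) lie mostly above it, and heat shock chaperones (blue, 0.81 and 0.72) lie close to it.

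Vehicle array 3 also stood apart in amino acid response genes driven by ATF4. In that list of 31 genes its median was 0.83 above the other controls, the third estradiol array was at 0.88, and the treated arrays were at 0.36, 0.36 and 0.05. With all arrays 1 gene rose and 3 fell with a median of -0.11, and without vehicle array 3 5 rose and 3 fell with a median of 0.36 (2 rose without CG-1521 array 3). ATF3 read 6.46, 5.59 and 7.55 in the vehicle arrays and 9.70, 8.41 and 9.58 in the CG-1521 arrays. ATF3, a stress-induced repressor, was lowest in vehicle array 2 and highest among controls in vehicle array 3, and it rose by 2.70 ± 0.52 (adjusted p = 0.00398), or by 3.21 without vehicle array 3. PHGDH read 10.60, 10.63 and 10.91 in the vehicle arrays and 9.58, 9.99 and 9.23 in the CG-1521 arrays. ALDH18A1 read 10.28, 10.42 and 10.40 in the vehicle arrays and 8.67, 9.15 and 9.02 in the CG-1521 arrays. PHGDH starts serine synthesis and ALDH18A1 proline synthesis, and both had treated arrays below all controls, with differences of -1.12 ± 0.18 (adjusted p = 0.00137) and -1.41 ± 0.15 (adjusted p = 0.000107), and of -1.02 and -1.40 without vehicle array 3.

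Histone genes leaned lower. Of 52 core and linker histone genes 9 fell and 1 rose, against 8.26% and 8.32% of all genes, with a median of -0.41. Without vehicle array 3, 19 fell and none rose, against 7.47% and 6.9%, with a median of -0.64. The falls numbered 3 without vehicle array 1, vehicle array 2, CG-1521 array 1 or CG-1521 array 3. Vehicle array 3 stood at -0.72 and the treated arrays at -0.58, -0.62 and -0.65. H1-4 read 11.18, 11.08 and 9.91 in the vehicle arrays and 9.40, 9.45 and 9.09 in the CG-1521 arrays. H1-4 is a linker histone of the chromosome 6 cluster, where many genes have near-identical copies, and it changed by -1.41 ± 0.30 (adjusted p = 0.0068), or by -1.82 without vehicle array 3. H2AZ2 read 10.22, 10.06 and 9.72 in the vehicle arrays and 8.73, 9.15 and 9.06 in the CG-1521 arrays. H2AZ2, a replacement variant, changed by -1.02 ± 0.17 (adjusted p = 0.00148), or by -1.16 without vehicle array 3. Among 18 deacetylase genes, 11 were zinc-dependent enzymes and 7 sirtuins. In each class 1 was higher as a transcript, against 8.32% of all genes rising. None was lower (limma, 1 lower at an unadjusted p under 0.05). HDAC9 read 4.23, 4.09 and 4.18 in the vehicle arrays and 5.74, 4.91 and 5.45 in the CG-1521 arrays. HDAC9, a class II deacetylase, rose from a low level by 1.20 ± 0.20 (adjusted p = 0.0015; 1.20 without vehicle array 3), and SIRT7, a nuclear sirtuin, by 0.56 ± 0.12 (adjusted p = 0.00747). HDAC1 differed by 0.55 ± 0.24 (adjusted p = 0.135), and by 0.29 without vehicle array 3, its lowest control. Of 29 other chromatin regulators 2 rose, the corepressor SIN3B at 0.65 ± 0.11 (adjusted p = 0.00239) and the acetyl-histone reader BRD2 at 0.58 ± 0.11 (adjusted p = 0.00398), and 2 others fell in the fit without vehicle array 3.

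Inhibitors of the cell cycle rose in part. Of 13 genes 3 rose and 2 fell, and 1 fell without vehicle array 1, vehicle array 2, CG-1521 array 1 or CG-1521 array 3. Over all genes 8.32% rose and 8.26% fell. CDKN1A read 6.74, 6.47 and 6.77 in the vehicle arrays and 8.03, 7.85 and 8.30 in the CG-1521 arrays. CDKN1A is p21, a gene often cited as a response to deacetylase inhibitors, and it rose by 1.40 ± 0.17 (adjusted p = 0.00019), or by 1.46 without vehicle array 3, with no overlap between groups. GADD45A read 7.90, 7.80 and 7.92 in the vehicle arrays and 9.91, 9.29 and 9.63 in the CG-1521 arrays. GADD45A, a growth arrest gene, rose by 1.74 ± 0.17 (adjusted p = 7.07e-05; 1.76 without vehicle array 3), and CDKN2B, p15, by 1.15 ± 0.14 (adjusted p = 0.000203). CCNG2, an atypical cyclin that holds cells back, changed by -0.83 ± 0.17 (adjusted p = 0.0067). Of 15 genes often cited with deacetylase inhibitors 3 rose, CDKN1A, CLU at 1.51 ± 0.25 (adjusted p = 0.00155) and KLF6 at 0.96 ± 0.23 (adjusted p = 0.0144), which lost its call without vehicle array 2 or CG-1521 array 3. None fell in limma with all arrays or at an unadjusted p under 0.05, and 1 fell without vehicle array 3.

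Of 21 p53 targets 3 rose, CDKN1A, AEN at 0.83 ± 0.15 (adjusted p = 0.00282) and PMAIP1 at 0.74 ± 0.19 (adjusted p = 0.0188), in a line with mutant p53. A gene of the list fell in the fit without vehicle array 1. Over all genes 8.32% rose and 8.26% fell with all arrays. Of 38 apoptosis genes 4 rose and 3 fell, 5 and 3 without vehicle array 3, 2 and 1 without vehicle array 2, and 3 and 0 without CG-1521 array 1. With all arrays the counts were near the shares of all genes. CASP4 read 7.63, 7.88 and 7.90 in the vehicle arrays and 9.38, 9.03 and 8.94 in the CG-1521 arrays. CASP4, an inflammatory caspase, rose by 1.31 ± 0.17 (adjusted p = 0.00033; 1.36 without vehicle array 3), and CASP8, the initiator downstream of death receptors, by 0.78 ± 0.14 (adjusted p = 0.0022). APAF1, the scaffold of the apoptosome, changed by -0.82 ± 0.20 (adjusted p = 0.0133), or by -1.04 without vehicle array 3, and lost its call without vehicle array 2 or CG-1521 array 1. PMAIP1, a killer of the BCL2 family also called NOXA, lost its call without vehicle array 2 or CG-1521 array 1 or 3. The median of the apoptosis list was 0.00 and its sign changed with the scaling.

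Inflammatory genes rose in a minority of cases. In the list of NF-kB and cytokine genes, 14 of 41 rose and none fell (limma, 0 lower at an unadjusted p under 0.05) with a median of 0.26, and 12 rose and 1 fell without vehicle array 3. LIF read 6.98, 6.67 and 6.36 in the vehicle arrays and 9.0, 8.66 and 9.58 in the CG-1521 arrays. LIF is a cytokine of the interleukin-6 family, and it rose by 2.41 ± 0.27 (adjusted p = 0.000149), or by 2.26 without vehicle array 3. CXCL8 read 6.56, 6.36 and 5.90 in the vehicle arrays and 8.42, 7.97 and 8.86 in the CG-1521 arrays. CXCL8, the neutrophil attractant interleukin-8, rose by 2.14 ± 0.27 (adjusted p = 0.000278), or by 1.96 without vehicle array 3. IL6R, the interleukin-6 receptor, rose by 1.64 ± 0.14 (adjusted p = 3.91e-05) and CXCL2 by 1.80 ± 0.17 (adjusted p = 5.56e-05). Of 30 interferon response genes 7 rose and 2 fell, against 8.32% and 8.26% of all genes. Without vehicle array 3, 6 rose and 1 fell (1 fall also without vehicle array 1, CG-1521 array 1 or CG-1521 array 3). IFIT2 read 3.95, 4.02 and 4.38 in the vehicle arrays and 7.28, 6.41 and 8.55 in the CG-1521 arrays. IFIT2, an antiviral gene, was highest in treated array 3, and it rose by 3.30 ± 0.53 (adjusted p = 0.00137), or by 3.43 without vehicle array 3. The list's median over the 3 treated arrays was -0.02, 0.08 and 0.73 against vehicle arrays 1 and 2, so CG-1521 array 3 was far above the other treated arrays. IFI44 rose by 2.43 ± 0.29 (adjusted p = 0.000219) and the transcription factor IRF1 by 1.36 ± 0.20 (adjusted p = 0.000833).

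AP-1 and immediate early genes went both ways, 6 higher and 7 lower of 24, against 8.32% and 8.26% of all genes. The counts were 7 and 5 without vehicle array 3, and 3 and 6 without vehicle array 2. They were 5 and 4 without CG-1521 array 1, and 3 and 5 without CG-1521 array 3. FOS read 10.90, 10.23 and 11.41 in the vehicle arrays and 8.63, 8.73 and 9.37 in the CG-1521 arrays. FOS, a subunit of AP-1, fell by 1.93 ± 0.37 (adjusted p = 0.00355), or by 1.65 without vehicle array 3, its highest control. EGR1, a growth factor response gene, changed by -1.16 ± 0.21 (adjusted p = 0.00245), while IER5, known to activate HSF1, rose by 1.34 ± 0.25 (adjusted p = 0.00316).

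Of 35 tubulins and microtubule regulators 9 rose and 1 fell, against 8.32% and 8.26% of all genes. The counts were 7 and 2 without vehicle array 3, 6 and 0 without vehicle array 2, and 8 and 0 without vehicle array 1. They were 5 and 0 without CG-1521 array 1, and 6 and 0 without CG-1521 array 3. MAP1B read 5.00, 4.56 and 5.14 in the vehicle arrays and 8.14, 7.24 and 7.72 in the CG-1521 arrays. MAP2 read 6.39, 5.95 and 5.72 in the vehicle arrays and 8.89, 8.42 and 8.08 in the CG-1521 arrays. MAP1B and MAP2 stabilize microtubules in neurons, and both rose in every treated array, by 2.80 ± 0.28 (adjusted p = 6.79e-05) and 2.44 ± 0.33 (adjusted p = 0.000445), or by 2.92 and 2.29 without vehicle array 3. STMN1, which takes microtubules apart and is high in dividing cells, changed by -1.36 ± 0.39 (adjusted p = 0.0297), or by -1.74 without vehicle array 3, and kept its call without vehicle array 3 or CG-1521 array 2 but not without any other. Of 27 neuronal genes 2 rose, STX1A at 1.13 ± 0.23 (adjusted p = 0.00604) and UCHL1 at 1.06 ± 0.17 (adjusted p = 0.0015), near the share of all genes. None of 11 metallothioneins and none of 20 germline genes passed in limma, and none had an unadjusted p under 0.05.

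Among genes studied in inflammatory breast cancer, RHOC, a motility GTPase, read 8.89, 8.96 and 8.95 in vehicle and 10.00, 9.73 and 10.03 in CG-1521 and rose by 0.98 ± 0.12 (adjusted p = 0.00019), or by 0.99 without vehicle array 3. ALDH1A1, an aldehyde dehydrogenase used as a stem cell marker, read 5.88, 5.92 and 5.58 and 4.33, 4.43 and 4.19 and changed by -1.48 ± 0.12 (adjusted p = 2.61e-05), or by -1.58 without vehicle array 3. The groups did not overlap for either gene. JAK2 was the other call among 16 genes, at -0.45 ± 0.14 (adjusted p = 0.0388), and it was lost without vehicle array 1, 2 or 3 or CG-1521 array 1.

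The same dose and time of CG-1521 was also tested in SUM190PT with estradiol, against estradiol alone, with 3 other treated and 3 other control arrays. There 2306 genes rose (12.5%) and 2426 fell (13.2%). Of the genes that rose with CG-1521 alone, 795 rose there too, 51.9% of the first list and 34.5% of the second, and 1005 fell in both, 66.1% and 41.4%. Another 8 of the rises and 53 of the falls had the opposite call. The comparisons share no array, but arrays of the same replicate number deviated together between vehicle and estradiol and between CG-1521 and the combination, with correlations of 0.23 to 0.73 and 0.43 to 0.52, so they are not fully independent. Both comparisons also used 1 estimate of each gene's spread from all 12 SUM190PT arrays, which favours shared calls. All 30 genes with the largest rises and falls were called the same way there, with HSPA6 at 5.03, CRYAB at 4.82, FADS2 at -2.88 and CYP4Z1 at -4.62. Of the 16 sterol enzymes 14 fell there and of the 41 heat shock genes 22 rose and 3 fell.

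A direct test of the difference between the change alone and the change with estradiol called 95 genes (0.516%), 26 with a more positive change alone (0.141%) and 69 with a more positive change with estradiol (0.375%). That count was 0 without vehicle array 3 (limma, 3563 genes at an unadjusted p under 0.05), 0 without vehicle array 2 or any one of the CG-1521 arrays, and 1655 without vehicle array 1. It was 0 to 4 without any one of the estradiol or combination arrays, and 0 with a replicate block. TAS2R19, a taste receptor gene, read 4.11, 3.88 and 3.91 in vehicle and 4.85, 4.74 and 4.79 in CG-1521, a rise of 0.83 ± 0.15 (adjusted p = 0.00284; 0.80 without vehicle array 3) against -0.71 with estradiol. CHST14, a sulfotransferase, read 6.96, 7.42 and 7.19 and 6.11, 6.40 and 6.69, a change of -0.79 ± 0.19 (adjusted p = 0.0144; -0.79 without vehicle array 3) against 0.66 with estradiol, and the call alone was lost without vehicle array 2 or CG-1521 array 1.

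SUM149PT received 7.5 µM in medium with serum, so dose and medium differ from SUM190PT and the lines, the dose and the medium cannot be told apart. In SUM149PT 2655 genes rose (14.4%) and 3664 fell (19.9%). Of the SUM190PT rises 648 also rose in SUM149PT (42.3% and 24.4% of the lists) and 185 fell, and of the falls 636 also fell (41.8% and 17.4%) and 143 rose. The difference of the changes was called for 3801 genes (20.6%), 2141 with a more positive change in SUM190PT (11.6%) and 1660 with a more positive change in SUM149PT (9.01%). Heat shock chaperones differed between the lines. In SUM149PT 5 of 41 rose and 19 fell with a median of -0.19, and 27 had a called difference above and 1 below. HSPA6 stood at 0.58 in SUM149PT against 4.88 in SUM190PT, a difference of 4.30 ± 0.62 (adjusted p = 3.57e-05), and CRYAB at 0.03 against 4.65, a difference of 4.62 ± 0.53 (adjusted p = 2.68e-06).

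Sterol synthesis moved in opposite directions. In SUM149PT 14 of 16 enzymes rose and none fell with a median of 0.76, and for 15 the difference between the lines was called. SQLE changed by 1.15 in SUM149PT against -1.22 in SUM190PT, a difference of -2.37 ± 0.28 (adjusted p = 3.16e-06). Of the unfolded protein response genes 19 of 22 rose in SUM149PT and 13 had a called difference below. Proteasome genes rose in both, 24 of 28 in SUM149PT with a median of 0.38, and 9 had a called difference above. Of 58 spindle genes 57 fell in SUM149PT with a median of -1.72, and the difference was called for none of them in limma (median 0.27, with 3 at an unadjusted p under 0.05), which does not show that the changes were equal. For KIF20A the difference was 0.16 ± 0.52, with a 95% interval of -0.92 to 1.24. Of 26 ribosome-making genes all 26 fell in SUM149PT, and 21 had a called difference above.

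Of the 15 largest rises the difference between the lines was called for 12, and for the 15 largest falls it was called for all 15. Over all genes it was called for 20.6%. The rises and falls were picked for large changes in the same SUM190PT arrays, which favours a called difference. The counts therefore do not show that these genes are particular to the line. The 3 rises without a called difference were AKR1B10, EPGN and MAP1B. AKR1B10 changed by 3.68 in SUM190PT and 3.69 in SUM149PT, with a 95% interval of -0.91 to 0.89 for the difference, and EPGN by 3.34 and 3.17, with an interval of -0.54 to 0.88. MAP1B changed by 2.80 and 1.93. CDKN1A rose by 1.40 in SUM190PT and 1.45 in SUM149PT, with an interval of -0.47 to 0.38.

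**Figure D5:**
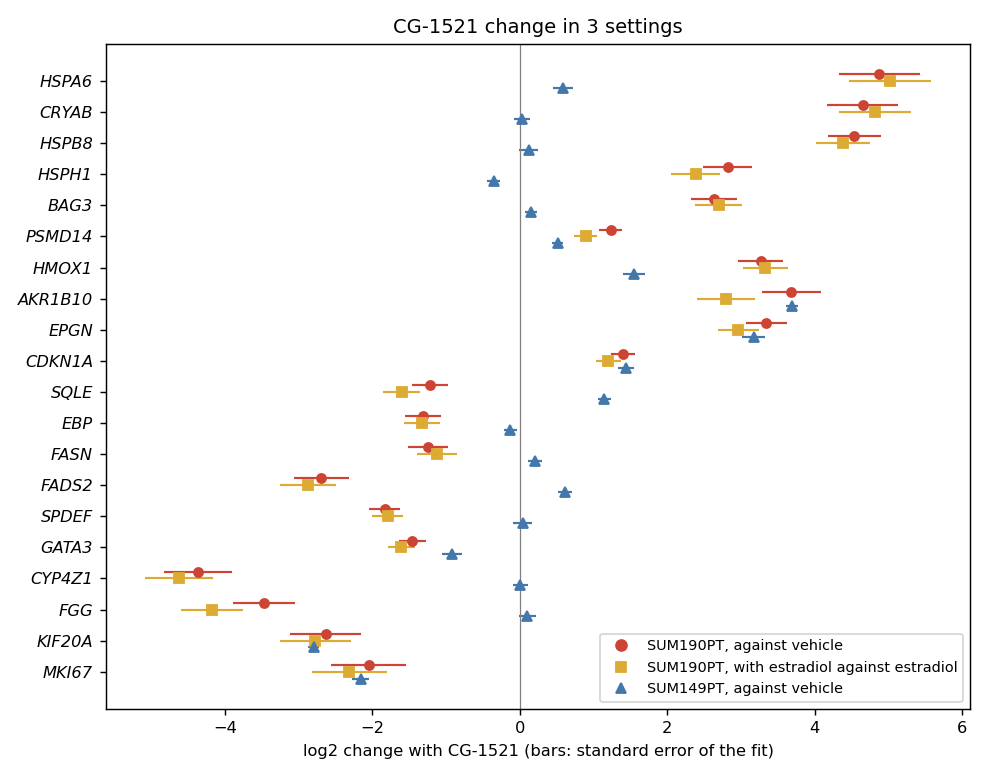
Log2 change with CG-1521 (x axis, bars are the standard error of the fit) of 20 genes (y axis) in SUM190PT against vehicle (red circles), in SUM190PT with estradiol against estradiol (yellow squares) and in SUM149PT against vehicle (blue triangles). HSPA6 stands at 4.88, 5.03 and 0.58, SQLE at -1.22, -1.60 and 1.15, and MKI67 at -2.05, -2.31 and -2.16.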

How the data were processed

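Gene expression was measured on 24 whole-transcript arrays, and 12 SUM190PT arrays in 4 groups of 3 entered the main comparison. The deposited values are log2 expression per probe set, made by the authors with RMA in the Affymetrix Expression Console, per the submitters' processing notes, and versions and annotation release are not given in the sources used here. Arrays carry no read depth, so their number limits the precision. RMA sets the probe intensities of all arrays to a common distribution, so the values show change relative to the other genes of an array. Array medians of the gene values still differed, and centring them moved the share of rises from 50.2% to 66.4%. No normalization was added. Of 33297 probe sets, 19460 had 1 gene symbol, 1754 had several and 12083 had no entry in the platform table, and 19429 of the single symbols matched RefSeq. For 769 genes with more than 1 probe set the brightest by mean was kept, which left 18417 genes.

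A linear model with 1 mean per group was fitted with limma 3.58.1 in R 4.3.3 (lmFit and eBayes, 8 residual degrees of freedom before moderation). Its adjusted p is two-sided and Benjamini-Hochberg corrected over all genes, with a threshold of 0.05. The comparison between lines used all 24 arrays. Tables were joined with pandas 2.3.3 and numpy 2.4.6 in Python 3.11.15, and plots drawn with matplotlib 3.10.9. The scripts were tested on simulated data.

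The gene lists and members were chosen with earlier results of these data known. Genes are named by rule: the 15 largest rises and falls among called genes whose groups did not overlap, leaving out uncharacterized loci, noncoding RNAs, pseudogenes and olfactory receptors; for each difference of changes the 8 largest each way; for each role of a list up to 5 called members by size, or the 2 with the smallest p; and single genes that include CDKN1A, ERBB2, EGFR, ESR1, GRB7, HDAC1, BIRC5, HSPA6, HSPA1A, SREBF1 and MKI67, while others are not reported here. Of 1453 list members, 1330 distinct genes were measured. Promoter windows of RefSeq on GRCh38.p14 were matched by gene identifier for 14237 genes. Alternatives were leaving out each array, array centring, quantile normalization, array weights, a replicate block, all 24 arrays or the compared groups alone in the fit, removal of the dimmest 50% of genes and a 2-fold requirement. The heat shock element in the order TTCNNGAA was added after the data were seen.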

Additional observations from a re-analysis of the deposited data

Results flagged for a closer look

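The change with CG-1521 differed between SUM190PT and SUM149PT for 3801 genes in a limma test of the difference itself. Dose and medium also differed between the lines. The largest differences in favour of SUM190PT, as its log2 change minus that of SUM149PT, were 4.62 for CRYAB, 4.42 for HSPB8, 4.30 for HSPA6, 4.26 for CASP14, 4.19 for BPIFC, 3.79 for TGFB2, 3.49 for CLIC2 and 3.21 for IFIT2. CASP14, the caspase of skin differentiation, read 5.92, 6.48 and 6.68 in vehicle and 5.49, 7.87 and 8.84 in CG-1521 in SUM190PT, where it did not pass at 1.04 (limma adjusted p = 0.446), and it changed by -3.22 in SUM149PT. TGFB2, a growth factor, changed by 0.92 in SUM190PT and by -2.88 in SUM149PT.

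The largest differences the other way were -4.37 for CYP4Z1, -3.70 for AGR2, -3.57 for FGG, -3.56 for MAGED1, -3.56 for ELAPOR1, -3.55 for LRRC31, -3.51 for FGB and -3.51 for AKR1C3. AGR2, a folding enzyme of secretory cells, differed by 0.18 in SUM190PT (limma adjusted p = 0.469) and by 3.88 in SUM149PT. MAGED1 changed by -1.57 in SUM190PT and by 1.99 in SUM149PT. AKR1C3, which reduces steroids and prostaglandins, differed by 0.18 in SUM190PT (limma adjusted p = 0.84) and by 3.69 in SUM149PT.

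Between CG-1521 alone and CG-1521 with estradiol, 95 genes passed in a limma test of the difference. None passed with a replicate block or without vehicle array 2 or 3, so these calls rest on the choice of arrays and fit. The largest positive values, change alone minus change with estradiol, were 1.54 for TAS2R19, 1.34 for METTL15, 1.25 for RPL22, 1.24 for ZNF429, 1.13 for ABHD18, 1.10 for KRCC1, 1.10 for TMEM67 and 1.07 for HNRNPA1L2. The largest negative values were -1.45 for CHST14, -1.23 for CFAP77, -1.23 for TGFB1I1, -1.19 for KBTBD11, -1.15 for INSL3, -1.13 for ANKRD53, -1.12 for HBQ1 and -1.12 for LRRC24.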

How the results depend on the processing

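None of the named genes that passed changed direction under any alternative run, while 4 of the 327 named genes, none of them passing, and the medians of 22 of the 54 lists, each within 0.15 of 0, changed sign under at least one. Leaving out 1 array at a time, the number of genes that rose with CG-1521 ran from 866 to 1621 and the number that fell from 701 to 1743, and with estradiol from 1060 to 2500 and from 1521 to 2602. The difference between lines ran from 3029 to 4713 genes and the difference between CG-1521 alone and with estradiol from 0 to 1655. With all 24 arrays in one fit, 2382 genes rose and 2688 fell, 3662 rose with estradiol, and 2540 differed between CG-1521 alone and with estradiol. A 2-fold requirement left 363 rises and 346 falls, 246 rises and 655 falls with estradiol, 37 differences alone against with estradiol and 918 between lines. With array weights, 3849 genes rose with estradiol and 1814 differed alone against with estradiol. Without the dimmest 50% of genes, 1344 rose with estradiol and 1 differed. That last count was also 1 without the third vehicle and estradiol arrays, 3 after quantile normalization and 10 after centring. The causes were not tested. With a replicate block, 1910 genes rose and 1991 fell, and 0 differed between CG-1521 alone and with estradiol (limma, 4551 at an unadjusted p under 0.05). Deviations of same-numbered vehicle and CG-1521 arrays correlated at -0.01, 0.10 and 0.055. These values do not settle whether same-numbered arrays came from the same experiment, and the main fit used no block. Of the values for single named genes, 6908 kept their side of the threshold, 493 lost it, 70 gained it and 11 moved. With 3 arrays a group from 1 culture, p-values cover only the spread between repeat experiments.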
